A study of Mus musculus with 16 samples.

Results

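The cells described here are 303 of the 5777 forebrain cells in the matrix (5.24%, Clopper-Pearson 95% interval 4.68 to 5.85), chosen by their UMI counts of Lhx6 and of genes that accompany it in cortical interneurons. A cell was taken when it had at least 1 unique molecular identifier (UMI, a tag of 1 captured RNA molecule) of Lhx6, at least 3 UMIs of Lhx6, Sst, Maf and Npy in sum, 0 of Lhx8, at least 2 of Dlx1, Dlx2, Dlx5, Gad1 and Gad2 in sum, and at most 3 of Neurod6. All cells came from CD1 mice, an outbred strain, labelled wild type and taken at embryonic day 15.5. The tissue label is forebrain, while the design text names the cerebral cortex. No treatment is named in the labels, nor the number of embryos. All 16 samples form 1 group and were deposited as 1 pooled matrix with no link from cell to sample. The pool gives 1 value per class of cells, so there is no test and no replicate error. Each interval covers counting error only, and "higher" or "lower" means at least 1.5-fold between summed UMIs scaled to CPM (UMIs of the gene per 1000000 UMIs of the class).

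Inhibitory interneurons of the cortex are born in the ganglionic eminences of the ventral forebrain and travel tangentially into the cortical wall. In the medial eminence the transcription factor Nkx2-1 turns on Lhx6, a LIM-homeodomain factor that stays on in the migrating cells and in the somatostatin and parvalbumin interneurons they become. Cells that enter the cortex shut Nkx2-1 off, while many interneurons that settle in the striatum keep it. Sst and Npy encode the precursors of the secreted peptides somatostatin and neuropeptide Y, and Maf encodes a leucine zipper factor of this lineage.

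The sequences before the starts of Sst and Npy are shown because these are the peptide genes among those that chose the cells. The Sst stretch holds a cAMP response element, the 8 bases in capitals, whose first base lies 48 bases before the RefSeq start. It spans chr16:23890874-23890903 (build GRCm38.p6, minus strand). In the GENCODE M21 annotation, where the Sst gene reaches to 23890958, it falls inside the gene. The Npy stretch is the 250 bases before the RefSeq start (chr6:49822460-49822709, plus strand), and neither the element, TGACGTCA, nor the homeodomain core TAATTA was found in it on either strand. Both are given 5′ to 3′ from RefSeq.
Sst: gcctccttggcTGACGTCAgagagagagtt
Npy: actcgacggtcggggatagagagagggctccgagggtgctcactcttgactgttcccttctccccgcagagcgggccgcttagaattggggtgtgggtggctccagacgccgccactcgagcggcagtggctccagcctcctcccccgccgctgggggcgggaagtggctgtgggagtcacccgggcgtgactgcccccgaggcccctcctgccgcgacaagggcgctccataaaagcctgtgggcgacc
TGACGTCA occurs in 508 of 32851 windows of 250 bases before RefSeq starts (1.55%), and TAATTA in 1590 (4.84%). The matches describe sequence and not binding.

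Against a working name of Lhx6 and Sst interneurons, 163 of the 303 cells had no UMI of Sst. They are therefore called Lhx6 cells. Lhx6 (chr2:36081953-36105408, build mm10, minus strand) had 1 to 11 UMIs per cell with a median of 2. Sst (chr16:23889573-23890958, minus strand) ranged from 0 to 101 UMIs with a median of 0, and the 10 cells with most Sst held 35.4% of its 1567 UMIs. Npy (chr6:49822710-49829507, plus strand) ranged from 0 to 23 UMIs, and 10 cells held 32.1% of its 521 UMIs. Maf (chr8:115682942-115707794, minus strand) was spread more evenly, with 0 to 10 UMIs and 14.2% in its 10 highest cells. These values describe the choice of cells, since the rule used all 4 genes.

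The cells combined the 3 companion genes in every way. Of Sst, Maf and Npy, Maf alone was detected in 87 cells (28.7%), all 3 in 51 (16.8%) and Sst with Maf in 35 (11.6%). Sst alone was detected in 30 cells (9.90%), Maf with Npy also in 30, Sst with Npy in 24 (7.92%) and Npy alone in 19 (6.27%). In 27 cells (8.91%) none of the 3 was found, and Lhx6 alone met the sum.

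**Figure D1:**
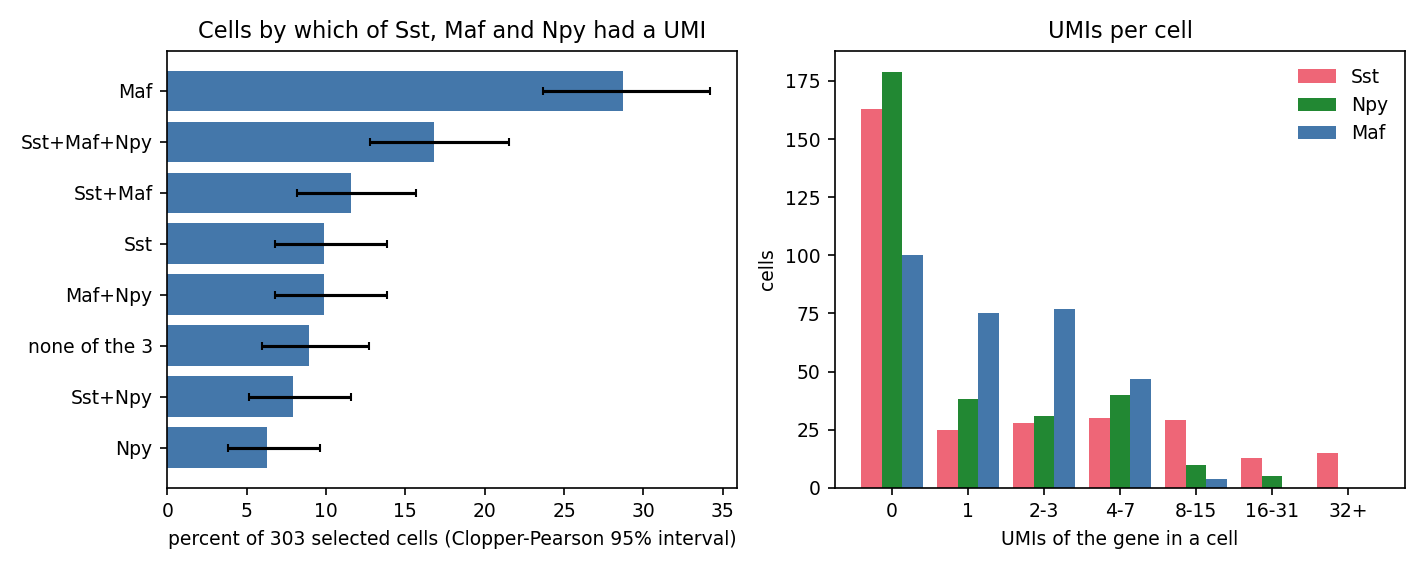
Left, percent of the 303 Lhx6 cells by which of Sst, Maf and Npy had at least 1 UMI, with Clopper-Pearson 95% intervals; right, number of cells by UMIs of each gene. Cells with Maf alone made up 28.7%, the longest of the 8 bars, and single cells reached 101 UMIs of Sst and 23 of Npy, against 10 of Maf.

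Detection depends on depth, so each cell was also thinned to 1000 UMIs. Cells with at least 4 UMIs of the excitatory neuron gene Neurod6 and none of the 5 Dlx and Gad genes serve as background; their median depth was 4004.5 UMIs, and that of the Lhx6 cells 2580. Sst was found in 37% of Lhx6 cells (31.5 to 42.7) against 0.973% of Neurod6 cells, and before thinning 46.2% against 3.2%. Npy was found in 28.4% of Lhx6 cells (23.4 to 33.8) against 1.66% of Neurod6 cells, and before thinning 40.9% against 3.55%. Both peptide genes count in the rule's sum, so these shares in part restate how the cells were chosen. Nxph2, a secreted ligand of neurexins given as a marker but not used to choose cells, was found in 17.8% of Lhx6 cells (13.7 to 22.6) against 0.114% of Neurod6 cells, and before thinning 32.7% against 0.858%. Sox6, a factor of the lineage also outside the rule, was found in 28.7% of Lhx6 cells (23.7 to 34.2) against 6.06% of Neurod6 cells. Before thinning the shares were 53.5% and 14.9%. Sox6 did not set the Lhx6 cells apart from the Lhx8 cells described below, where its thinned share was 29.2% (17.0 to 44.1). It was 10.6% in the Sp8 and Adarb2 cells and 4.09% in the Ebf1 and Isl1 cells. Thinned Nxph2 was found in 2 of 1748 Neurod6 cells and 2 of 123 Sp8 and Adarb2 cells (1.63%). It was found in 0 of 48 Lhx8 cells and 0 of 220 Ebf1 and Isl1 cells. Nos1 and Chodl, which mark long-range Sst cells in the adult, had 13 UMIs in 7 cells and 3 in 2.

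Cells on either side of the rule's limit differed by degrees. The 54 cells whose sum was exactly 3 had 212 CPM of Nxph2 and 505 of Satb1, and the 54 cells just outside, with a sum of 2, had 131 and 460.4. Nkx2-1 lay at 183 CPM just inside and 289 just outside, and at 85.0 in the 213 cells with a sum of 5 or more. Of 672 cells with an Lhx6 UMI, 40 failed by Lhx8 alone, 33 by Neurod6 alone and 22 by the Dlx and Gad genes alone. A further 70 cells met every other condition without an Lhx6 UMI.

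The matrix was split into 2 runs of cells in file order. The first ends at the last cell with a Y-linked UMI. The second begins at the first cell with a UMI of 11 genes listed out of alphabetical order. The 2 stretches did not overlap, so all 1363 Y-linked UMIs lie in the first and all 241 UMIs of the 11 genes in the second. No source used here says what the runs are. Lhx6 cells were 164 of 3651 in the first run (4.49%, 3.84 to 5.21) and 138 of 2122 in the second (6.50%, 5.49 to 7.64), with 1 more among the 4 cells between them. The compared classes lay mostly in the first run, namely 104 of 123 Sp8 and Adarb2 cells, 48 of 48 Lhx8 cells and 209 of 220 Ebf1 and Isl1 cells. A ratio to a class is therefore followed by its value within the first run where the 2 differ by over 1.5 times.

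Transcription factors of the lineage stood well above the other 5474 cells of the matrix. Of 11704 genes measured (at least 50 UMIs over both classes), 9.36% were higher and 23.9% lower in Lhx6 cells; of 21 measured interneuron factors outside the rule, 14 were higher and 1 was lower. Their median log2 ratio was 1.65, beside -0.11 over all genes. Npas1, a basic helix-loop-helix factor, was 17.5-fold (12.7 to 23.8; 8.6-fold in the first run) higher, and the homeodomain factor Cux2 8.21-fold (6.33 to 10.6). Satb1 and Sox6 act downstream of Lhx6. Satb1 was at 739 CPM against 194, 3.81-fold (3.5 to 4.15) higher, and Sox6 at 377 against 107, 3.53-fold (3.13 to 3.96) higher. Dlx1as was 12.8-fold (11.8 to 14) higher, but it overlaps Dlx1 on the opposite strand, and no source used here says whether the counting used strand. The same limit touches Zeb2, Pax6, Nr2f2, Sp9, Ccnd2 and Sstr2, which overlap other genes on the opposite strand.

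Of 8 measured genes of GABA handling outside the rule, 4 were higher and 2 lower, beside 9.36% and 23.9% of all genes. Slc32a1, the vesicular GABA transporter, was 6.92-fold (5.73 to 8.32) higher. It was at 173 CPM in Lhx6 cells, 154 in the Lhx8 cells, 105 in the Ebf1 and Isl1 cells and 102 in the Sp8 and Adarb2 cells. Slc12a5, the chloride exporter of mature neurons, rested on 18 UMIs in Lhx6 cells and was 2.26-fold (1.31 to 3.67; 1.42-fold in the first run) higher. Slc12a2, the chloride importer of immature neurons, was 2.02-fold (1.51 to 2.75) lower. Of 20 measured neuropeptide and calcium-binding genes outside the rule, 5 were higher and 7 lower. Calb1, the calcium buffer calbindin, was 16.4-fold (13 to 20.6) higher, and Pnoc, the precursor of nociceptin, 5.16-fold (3.1 to 8.23).

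Several genes of receptors and synapses had large ratios to all other cells. Cacng3, an auxiliary subunit of AMPA receptors, was at 106 CPM against 2.55, 41.5-fold (29.2 to 59.3; 27.1-fold in the first run) higher. Neto1, an auxiliary subunit of kainate receptors, was 28.9-fold (23.5 to 35.6) higher, and Dgkg, a diacylglycerol kinase, 35-fold (26.8 to 45.8). Nxph2 was 25.8-fold (20.9 to 31.8) and its relative Nxph1 21.6-fold (14.4 to 32.1; 12.7-fold in the first run) higher. Elfn1, a postsynaptic adhesion protein of Sst interneurons, was 21.3-fold (14.9 to 30.6) higher. Over all genes measured, 9.36% were higher and 23.9% lower, with a median log2 ratio of -0.11. The list of glutamate receptors leaned one way, with 9 of 14 measured higher and 1, Gria3, lower, and a median log2 ratio of 1.17. Within it the kainate receptor gene Grik1 was 14.8-fold (11 to 19.9) higher, and the AMPA receptor genes Gria1 and Gria4 9.65-fold (8.8 to 10.6) and 9.6-fold (7.91 to 11.6).

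Counts of channels, synaptic organisers and receptors for peptides stand beside the share of all genes, 9.36% higher and 23.9% lower. Of 29 ion channel genes 10 were higher and 5 lower, and Kcnmb2, a subunit of calcium-activated potassium channels, was 15.8-fold (10.2 to 24.2; 7.18-fold in the first run) higher. Of 33 synaptic organisers 9 were higher and 13 lower. Of 13 receptors for peptides and modulators 4 were higher and 6 lower. The neuropeptide Y receptor gene Npy2r was 16.3-fold (9.41 to 27.8) higher, while the somatostatin receptor gene Sstr2 was 21.7-fold (5.99 to 179; 11.6-fold in the first run) lower.

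Of 36 measured receptors and ligands of migration, 11 were higher and 14 lower, beside 9.36% and 23.9% of all genes. Cxcr4 (chr1:128588199-128592293, minus strand) and Ackr3 (chr1:90203980-90216751, plus strand) encode the pair of receptors for the chemokine Cxcl12 that guides interneuron streams. Cxcr4 was at 187 CPM against 23.2, 8.08-fold (6.72 to 9.68) higher. Ackr3 was at 450.3 CPM against 51.8, 8.7-fold (7.73 to 9.78) higher. The gene of their ligand, Cxcl12, was lower, 20.0-fold (5.52 to 165). Among receptors for guidance cues, Unc5c was 3.27-fold (1.81 to 5.54) higher, Nrp1 3.95-fold (3.22 to 4.9) lower, Dcc 2.22-fold (1.86 to 2.69) lower and Robo1 1.78-fold (1.41 to 2.28) lower. Dcx, which binds microtubules in migrating neurons, was 2.1-fold (2.02 to 2.18) higher.

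A first class for comparison held 123 Sp8 and Adarb2 cells. These had at least 2 UMIs of Sp8, Adarb2, Prox1 and Htr3a, genes of interneurons from the caudal eminence, 0 of Lhx6, Lhx8, Ebf1 and Isl1, and the same limits on Dlx and Gad genes and Neurod6. Of 5379 genes measured 15.7% were higher in Lhx6 cells and 13.3% lower. The metabotropic glutamate receptor gene Grm5 was at 239 CPM against 2.5, a 95.4-fold (16.9 to 3788; 62.9-fold in the first run) difference that rests on 1 UMI in the other class. Neto1 was 32-fold (10.8 to 156; 17.4-fold in the first run) higher, Thbs1, a secreted matrix protein, 16.4-fold (8.19 to 38.2) and Cxcr4 12.5-fold (5.62 to 34.5; 20.7-fold in the first run). Cacng3 and Grik1 had 0 UMIs in the Sp8 and Adarb2 cells and were at least 14.1-fold and at least 11.6-fold higher, counting 3 UMIs over that class. Of the lineage factors, Mef2c, which is tied to the parvalbumin branch, was 9.43-fold (6.61 to 13.9) higher, Satb1 3.7-fold (2.92 to 4.72) and Sox6 2.32-fold (1.77 to 3.08). Ackr3 was 9.01-fold (5.75 to 14.9) higher.

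Several transcription factors were lower in Lhx6 cells than in the Sp8 and Adarb2 cells. Foxp2 was 12.1-fold (6.32 to 25.5) lower, Pax6 9.26-fold (6.14 to 14.4), Meis2 6.64-fold (5.45 to 8.13) and Nr2f2, a factor of the caudal eminence, 3.48-fold (2.76 to 4.42; 2.18-fold in the first run). Of 26 G2/M genes 23 were measured and of 22 S-phase genes 11, and all of those measured were lower as well. A gene high in the Sp8 and Adarb2 cells can be measured through that class, so these counts are a description. Summed over all listed genes, measured or not, the G2/M level was 1027 CPM against 5268 and the S-phase level 643 against 2879. Without the dividing cells of both classes, those with at least 2 UMIs of Mki67, Top2a, Cdk1, Ccnb1 and Cenpf, 280 and 81 cells remained. Among them Thbs1 was 41.5-fold higher in Lhx6 cells, Neto1 20.6-fold, Mef2c 7.68-fold and Sox6 3.15-fold. All 123 Sp8 and Adarb2 cells held only 8 UMIs of Thbs1 and 3 of Neto1, so these 2 ratios rest on few UMIs.

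The 48 Lhx8 cells carry genes of basal forebrain neurons, which arise from the same Nkx2-1 domain and do not enter the cortex. They had at least 1 UMI of Lhx8 and 3 of Lhx8, Zic1, Zic2, Zic4 and Gbx1 in sum. Their rule did not exclude Lhx6, and 81.25% of them had an Lhx6 UMI. Lhx6 was at 698 CPM there, against 743 in the Lhx6 cells of the first run, so the name Lhx6 cells does not set the 2 classes apart. Of 4630 genes measured 18.3% were higher in Lhx6 cells and 12.1% lower. The 2 classes were close in Sox6 (ratio 0.954, 0.727 to 1.27). They parted in other factors: Mef2c was 5.09-fold (3.39 to 8.0; 2.88-fold in the first run) higher and Satb1 3.23-fold (2.32 to 4.63). Zeb2, which shuts down Nkx2-1 in cortex-bound cells, was 4.2-fold (2.96 to 6.15) higher. Gria1 had 1 UMI in the Lhx8 cells and 654 in the Lhx6 cells, a 123-fold (22 to 4873; 79.2-fold in the first run) difference. Cxcr4, also with 1 UMI there, was 30.3-fold (5.37 to 1205; 19.5-fold in the first run) higher, and the ephrin receptor gene Epha5 11.4-fold (6.15 to 23.9). Nkx2-1 (chr12:56531958-56536908, minus strand) was at 97.7 CPM in Lhx6 cells and 704 in Lhx8 cells, 7.2-fold (5.39 to 9.67; 4.18-fold in the first run) lower. The guidance receptor genes Dcc and Robo1 were 4.82-fold (3.69 to 6.3) and 3.42-fold (2.32 to 5.0) lower.

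The 220 Ebf1 and Isl1 cells are GABAergic cells with genes of striatal projection neurons (at least 3 UMIs in sum of a small set of striatal genes that includes Ebf1, Isl1 and Six3, and 0 of Lhx6 and Lhx8). Of 6281 genes measured 10.3% were higher in Lhx6 cells and 12% lower. Thbs1 was 62.8-fold (24.2 to 232; 33.2-fold in the first run) higher and Nxph2 34-fold (14.3 to 106). Dgkg, Cacng3, Npas1 and Elfn1 had 0 UMIs there and were at least 41.4-fold, at least 27.1-fold, at least 21.7-fold and at least 18.2-fold higher. Here Sox6 separated the classes, at 377 CPM against 43, 8.77-fold (6.12 to 13) higher, and 16.6-fold without dividing cells. Cxcr4 was 9.59-fold (5.65 to 17.5) and Ackr3 9.88-fold (6.98 to 14.4) higher. Factors of the striatum were lower in Lhx6 cells, with Zfp503 78.1-fold (35.6 to 214; 43-fold in the first run), Zfhx3 27.7-fold (17.6 to 46.5; 15.3-fold in the first run), Foxp2 23.4-fold (12.8 to 47.5), Meis2 11.9-fold (9.96 to 14.3) and Foxp1 10.9-fold (8.52 to 14.2) lower. The choroid plexus transcript Ttr stood at 2436 CPM in the Ebf1 and Isl1 cells and 33.7 in Lhx6 cells. The source of this RNA in either class was not tested.

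**Figure D2:**
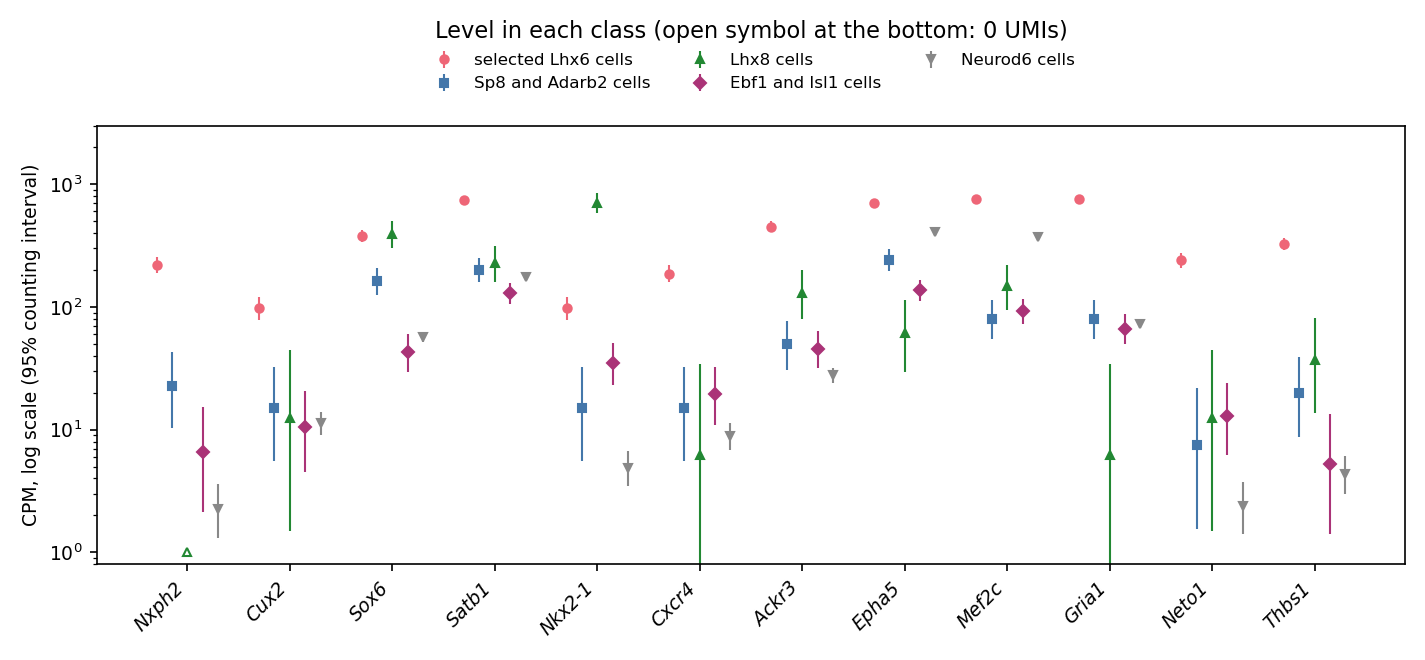
Level of 12 genes (CPM, log axis, 95% counting interval) in the Lhx6 cells and 4 other classes; open symbols mark 0 UMIs. Cxcr4, Gria1 and Neto1 lie higher in the Lhx6 cells than in each other class, Sox6 overlaps with the Lhx8 cells, and Nkx2-1 stands at 704 CPM in the Lhx8 cells against 97.7 in the Lhx6 cells.

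Lists of genes were also set against each class. A gene was measured with at least 50 UMIs over both classes, and the Lhx6 cells hold more UMIs than each of the 3 classes, so a gene can be measured through the Lhx6 cells alone and the counts are given as a description. The share of all genes higher and lower was 15.7% and 13.3% against the Sp8 and Adarb2 cells, 18.3% and 12.1% against the Lhx8 cells, and 10.3% and 12% against the Ebf1 and Isl1 cells. For glutamate receptor genes the median log2 ratio was 1.28 against the Sp8 and Adarb2 cells (6 of 9 measured higher, 0 lower), 1.46 against the Lhx8 cells (7 of 9, 0 lower) and 1.64 against the Ebf1 and Isl1 cells (5 of 9, 0 lower). The median over all genes was 0.00, 0.02 and -0.03. All 16 glutamate receptor genes in the matrix, measured or not, summed to 2329 CPM in the Lhx6 cells and to 845, 809 and 927 in the 3 classes in the same order. Of 38 synaptic organisers and adhesion genes only 14, 13 and 14 were measured, and all 38 summed to 4177 CPM against 2387, 2304 and 2323. Genes of presynaptic release were higher in 14 of 19, 7 of 18 and 11 of 18, with 1, 0 and 1 lower. Migration genes were higher in 11 of 21, 8 of 21 and 8 of 25, with 1, 6 and 7 lower. The comparisons share the 303 Lhx6 cells, so their values are not independent.

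**Figure D3:**
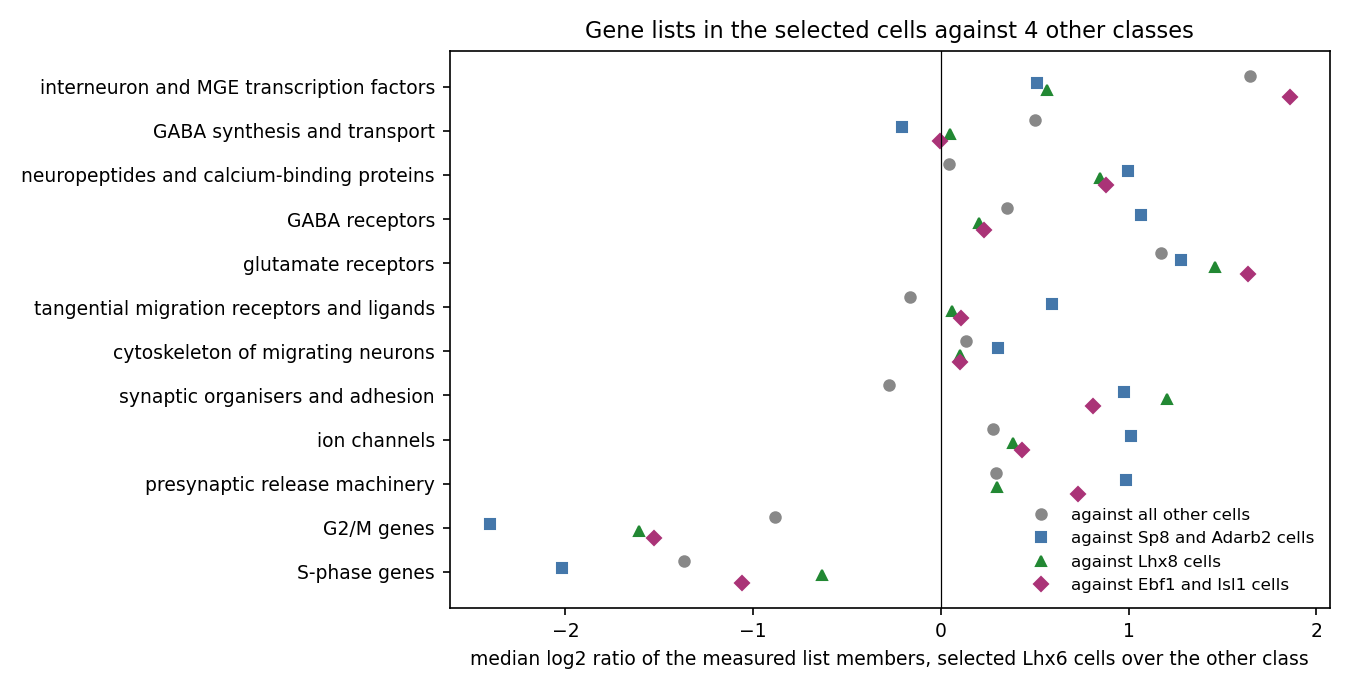
Median log2 ratio of the measured genes (at least 50 UMIs over both classes) of 12 lists, Lhx6 cells over each of 4 classes. Glutamate receptors lie between 1.17 and 1.64, and G2/M genes between -0.88 and -2.40.

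Among the Lhx6 cells, 140 had an Sst UMI and 163 did not. Of 4047 genes measured 7.29% were higher in the cells with Sst and 7.19% lower, the 4 genes of the rule's sum left out because the rule ties them together. Neto1 was at 383 CPM with Sst and 97.4 without, 3.93-fold (2.79 to 5.66) higher. Reln, the gene of the secreted protein reelin, was at 439 CPM and 114, 3.87-fold (2.81 to 5.41) higher. Gap43, a growth cone protein, was 3.23-fold (2.29 to 4.64) higher and Fabp7, a fatty acid binding protein of radial glia, 3.5-fold (2.73 to 4.53). Fabp7 turned, to a ratio of 0.746, when the 5% of all cells with the highest doublet scores were left out. Satb1 was 1.52-fold (1.29 to 1.79), Nxph2 1.73-fold (1.28 to 2.35) and Grm5 2.32-fold (1.71 to 3.18) higher with Sst. Satb1 lay at the limit, at 1.47-fold without dividing cells. Cux2 (ratio 1.16, 0.74 to 1.83), Mef2c (ratio 1.03, 0.877 to 1.2) and Cxcr4 (ratio 0.924, 0.669 to 1.27) stayed under 1.5-fold. Lower were St18, a zinc finger factor of young medial eminence neurons (4.74-fold), Epha4, an ephrin receptor (3.08-fold), Sox1 (2.88-fold) and the subpallial factor Sp9 (1.95-fold). Of 21 measured interneuron factors 2 were higher with Sst and 7 lower, and 4 of 9 glutamate receptor genes were higher with 0 lower.

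The size of these ratios differed between the runs. Neto1 was 11-fold higher with Sst in the first and 2.72-fold in the second run, Reln 12.7-fold and 2.54-fold, and Satb1 2.05-fold and 1.22-fold. Epha4 was 3.92-fold lower in the first and 1.46-fold in the second run. Sox1 was close in both, 2.85-fold and 2.99-fold lower, and Fabp7 was 2.73-fold and 5.58-fold higher.

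**Figure D4:**
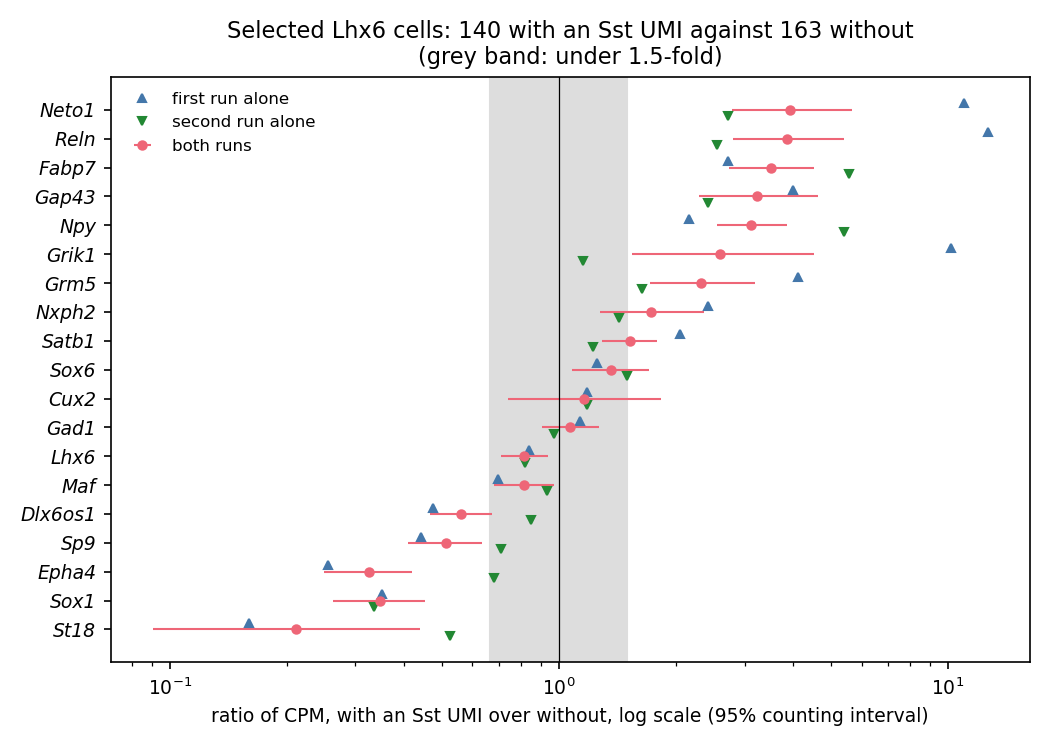
Ratio of CPM between Lhx6 cells with and without an Sst UMI (log axis, 95% counting interval; triangles give each run alone; grey band, under 1.5-fold). Neto1 and Reln lie at 3.93 and 3.87, and for both the first run lies farther from 1 than the second; the first-run point of Grik1 is a lower bound, with 0 UMIs without Sst.

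Npy was found in 42.9% of the thinned cells with Sst and 19.9% of those without. The shares were 37.3% and 24.7% in the first run, and 52.3% and 14.9% in the second. Maf was found in 38.4% with Sst and 49.7% without. A cell without Sst needs more UMIs of Lhx6, Maf or Npy to enter, so the rule by itself raises Maf and Npy where Sst is missing. Neto1, outside the rule, was found in 25.9% of thinned cells with Sst and 9.42% without. Before thinning, Cxcr4 and Ackr3 were found together in 68 cells, Cxcr4 alone in 29 and Ackr3 alone in 113.

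The Lhx6 cells of the 2 runs differed in part of the genes measured. Of 4041 genes measured 10.8% were higher in the first run and 9.9% lower. Nkx2-1 had 81 UMIs in 32 of 164 cells of the first run and 3 UMIs in 1 of 138 cells of the second, 21.1-fold (6.98 to 105) higher. Top2a, a topoisomerase of dividing cells, was 29.7-fold (9.93 to 146) higher, the cell cycle gene Ccnd2 4.96-fold (3.0 to 8.66) and the progenitor filament gene Nes 6.26-fold (2.99 to 15.1), which stood at 2.8-fold without dividing cells. Epha4 was 3.06-fold (2.33 to 4.07) higher, and Nrp2, a receptor for semaphorins, 2.68-fold (1.46 to 5.27). Dividing cells, those with at least 2 UMIs of Mki67, Top2a, Cdk1, Ccnb1 and Cenpf, were 20 of 164 (12.2%, 7.61 to 18.2) in the first run and 3 of the 138 later cells (2.17%, 0.451 to 6.22).

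Several genes that stood high against other classes were lower in the first run than in the second, namely Npas1 (5.7-fold), Thbs1 (2.83-fold), Mef2c (2.75-fold), Cxcr4 (2.27-fold), Gria1 (2.25-fold) and Lhx6 itself (1.74-fold). Their 95% counting intervals were 3.09 to 11.3, 2.19 to 3.69, 2.32 to 3.26, 1.63 to 3.19, 1.91 to 2.65 and 1.52 to 2.0 in the same order. Ackr3 (ratio 0.91, 0.741 to 1.12) and Npy (ratio 0.917, 0.769 to 1.09) stayed under 1.5-fold. Of 11 measured synaptic organisers 7 were lower in the first run and 0 higher, and of 9 glutamate receptor genes 5 and 0. Over all genes measured, 9.9% were lower and 10.8% higher.

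The Neurod6 cells of the runs differed in part in the same genes. There Cxcr4 (ratio 1.06, 0.635 to 1.76) and Epha4 (ratio 1.03, 0.96 to 1.11) stayed under 1.5-fold between the runs. Mef2c was 1.99-fold lower in the first run there too, Nrp1 2.01-fold and the synaptic vesicle gene Vamp2 2.27-fold. Nes was 2.4-fold and Top2a 1.92-fold higher. Gm6548 was 5.46-fold higher there, and Stmn1 and Gapdh were 4.43-fold and 2.72-fold lower. Ackr3 and Npy, under 1.5-fold in the Lhx6 cells, were 4.39-fold higher and 7.3-fold lower in the Neurod6 cells of the first run. Nkx2-1 had 37 UMIs in Neurod6 cells of the first run and 0 in the second, 10.9 CPM against 169 in the Lhx6 cells of the first run. The Y-linked UMIs set the end of the first run and so lie in it alone, and their part in these differences was not tested. Whether the runs differ in preparation or counting of the cells was not tested either.

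**Figure D5:**
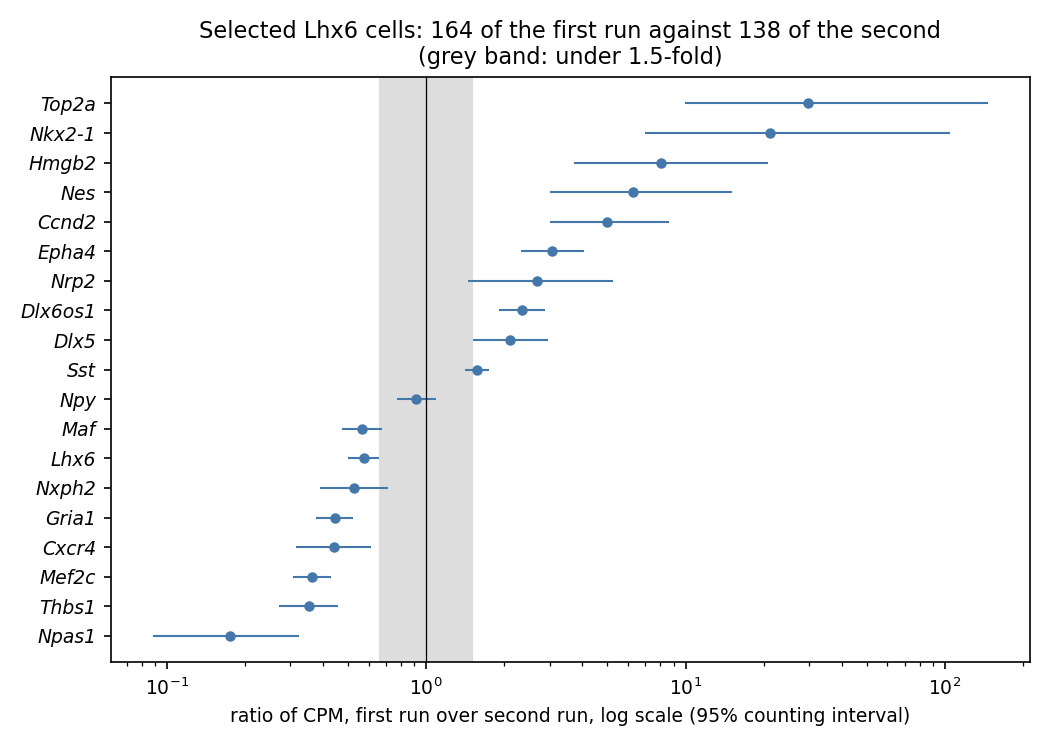
Ratio of CPM in Lhx6 cells, first run over second (log axis, 95% counting interval; grey band, under 1.5-fold). Top2a and Nkx2-1 lie far to the right at 29.7 and 21.1, Npas1 to the left, 5.7-fold lower, and the interval of Npy includes 1.

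Within the first run the 32 Lhx6 cells with an Nkx2-1 UMI were set against the 132 without, a comparison chosen after the values were seen. Of 2325 genes measured 10% were higher and 17.1% lower. Nxph2 had 3 UMIs in the cells with Nkx2-1 and 73 in those without, 6.9-fold (2.27 to 34.2) lower. Dgkg had 0 and 50 UMIs, at least 4.73-fold lower counting 3 UMIs. Chl1, an adhesion protein of growing axons, was 4.24-fold (2.63 to 7.26) lower, Cxcr4 3.01-fold (1.21 to 9.64) and Mef2c 2.62-fold (1.65 to 4.39). Higher with Nkx2-1 were the cell cycle genes Top2a, 4.36-fold (2.96 to 6.43), and Ccnd2, 2.96-fold (2.01 to 4.35), and the POU factor gene Pou3f2, 3.53-fold (2.03 to 6.11). Single cells with Nkx2-1 held up to 17 UMIs of Top2a, a spread that the counting interval does not cover. Without dividing cells, 22 cells with Nkx2-1 and 122 without remained, and Ccnd2 stood at 1.84-fold. Lhx6 (ratio 1.0, 0.77 to 1.29) and Sox6 (ratio 0.80, 0.544 to 1.15) stayed under 1.5-fold.

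Microglial and vascular markers were absent or nearly so in the Lhx6 cells, while genes of other neurons and of progenitors were found. All 9 microglial genes were at 0, and the 11 vascular genes in the matrix summed to 3.49 CPM, with 8 at 0 (among them Cldn5 and Pecam1). The haemoglobin genes of the same list are not in the matrix, so blood RNA was not measured. Excitatory neuron genes other than Neurod6 summed to 1413 CPM (16 of 17 with a UMI, Slc17a7 at 0), against 6139 in Neurod6 cells. Mef2c, a gene of this list that is also among the interneuron factors, gave 754 CPM of the first sum and 368 of the second. Within the Lhx6 cells the sum was 1028 CPM in the first and 1907 in the second run, of which Mef2c gave 427 and 1173. The part of the sum in the run differences was not tested. Genes of striatal projection neurons summed to 591 CPM (16 of 18 with a UMI, Ikzf1 and Adora2a at 0) against 6377 in the Ebf1 and Isl1 cells. Basal forebrain genes summed to 205 CPM against 193 in all other cells and 1890 in the Lhx8 cells. They summed to 337 CPM in the first and 37.2 in the second run, of which Nkx2-1, a gene of this list, gave 169 and 7.98, with Gbx2, Slc5a7 and Tacr3 at 0 in both, and their part in the run differences was not tested. Genes of caudal eminence interneurons all had a UMI (12 of 12) and summed to 1589 CPM. The sum was 1637 in all other cells, 1512 in Neurod6 cells and 2872 in the Sp8 and Adarb2 cells. Sp8, Adarb2 and Prox1, which chose the latter class, were at 10.5, 9.31 and 4.65 CPM in the Lhx6 cells, against 787, 115 and 75.0 there. Reln, another gene of the list, was at 276 CPM against 72.5. Genes of ganglionic eminence progenitors (15 of 18 with a UMI, Olig1, Gsx1 and Nkx6-2 at 0) summed to 2030 CPM, against 3632 in all other cells and 1896 in the Lhx8 cells, and to 2433 in the first and 1524 in the second run.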

How the data were processed

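Single-cell RNA libraries were made with the SureCell droplet workflow and deposited as 1 table of UMI counts per gene and cell, per the labels. The submitters' processing notes name the build mm10. Which aligner and cell filter were used, and whether doublets were removed, is not given here. The authors' deposited counts cover 14498 genes and 5777 cells, with 21609944 UMIs and 1111 to 17398 per cell (median 3258). No mitochondrial gene is listed.

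UMIs were summed over each class and scaled to counts per 1000000 (CPM). Ratios carry an exact conditional binomial 95% interval, shares a Clopper-Pearson interval; both cover counting error only. All 5777 cell names differ. Genes needed 50 UMIs over both classes; a class at 0 was set to 3 counts over the class. Cells were thinned to 1000 UMIs with a fixed seed. Doublets were kept; leaving out the 5% of cells with the highest Scrublet scores was an alternative. Members and gene lists were chosen with earlier results of these data known. Named genes are those of the rule, the markers and the lineage, transmitter, peptide and migration lists, with the members of largest ratio in other lists and the genes of largest ratio in each comparison, ranked by the bound of the interval nearest to 1. Dcx, Gria3, Gria4 and Npy2r fall outside this rule and were chosen after their values were seen. Alternatives changed the UMI minimum, the fold limit, the weight of cells, the run, the rule's limits, dividing cells and doublets. Some genes of the rules and lists are not reported here. Scripts were tested on simulated data and used Python 3.11.15, numpy 2.4.6, scipy 1.17.1, pandas 2.3.3, scanpy 1.11.5 and matplotlib 3.10.9.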

Additional observations from a re-analysis of the deposited data

How the results depend on the processing

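All values rest on 1 pool, and depth limits genes with few UMIs. Of 1037 alternative values of the 106 gene ratios named, 858 stayed within the counting interval and 176 moved outside it. The remaining 3 crossed 1 from a main ratio past the 1.5-fold limit. Ratios under that limit that crossed 1 were not counted apart. Sox6, for example, was at 377 CPM in the Lhx6 cells, 416 in those of the first run and 395 in the Lhx8 cells. Of the 3, Fabp7 between cells with and without Sst turned to 0.746 without the highest doublet scores. The other 2 have 0 UMIs in a class, so the value is a bound: Elfn1 against the Ebf1 and Isl1 cells in the second run (0.905) and Dgkg in the Nkx2-1 split with the rule on 50% of UMIs (1.19). Of 98 alternative medians of 27 lists, 9 moved. No paired analysis was possible because the matrix does not link cells to samples.

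With a minimum of 10 UMIs the percent of genes higher rose to 20.3 against all other cells, 17.0 in the Sst split, 20.7 between runs and 20.3 in the Nkx2-1 split. The percent lower was then 20.2 against the Sp8 and Adarb2 cells, 20.5 against the Lhx8 cells, 18.8 against the Ebf1 and Isl1 cells and 14.2 in the Sst split. With a 2-fold limit the percent higher and lower was 4.05 and 14.2 against all other cells, 6.43 and 4.95 against the Sp8 and Adarb2 cells, 8.06 and 3.30 against the Lhx8 cells, 3.63 and 4.54 against the Ebf1 and Isl1 cells, 1.41 and 1.41 in the Sst split, 3.22 and 2.57 between runs, and 2.32 and 6.02 in the Nkx2-1 split. The percent higher was 11.7 in the Sst split in the first run alone, 28.0 against the Ebf1 and Isl1 cells in the second run alone, where these were 10 cells, and 16.4 against all other cells with the rule on 50% of UMIs and the values from the remainder.

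The share of Lhx6 cells was 3.69% with a sum of at least 5, 6.18% with 2, 3.96% with no Neurod6 UMI, 4.49% and 6.50% in the runs, and 1.85% when cells were thinned first. The share with Sst, 37.0% when thinned to 1000 UMIs, was 28.1% at 500, 46.2% unthinned and 49.8% with a sum of at least 5. The share with both Sst and Npy, 15.8%, was 7.92%, 24.8% and 22.5% in the same settings. The causes of these shifts beyond the settings themselves were not tested.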
